A study of Mus musculus with 108 samples.

Results

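Pdgfra, Cspg4, Olig1, Olig2, Sox10, Gpr17, Enpp6 and Bcas1 mark the early oligodendrocyte lineage, from the proliferating precursor to the newly formed oligodendrocyte. These 8 genes were taken by name, as the rows whose Ensembl identifiers carry these symbols, and all 8 were found among the 53465 genes of the series. In WT mice all 8 were higher in cerebellum than in cortex at E17.5, beside 32.4% of all genes, though the Cspg4 call was lost when some embryos were left out. All 8 rose between E17.5 and P7 in cortex and hippocampus, beside 42.1% and 37.6% of all genes. After P7 they separated. The precursor genes Pdgfra and Cspg4 fell in every region, whereas Enpp6 and Bcas1 went on rising in cortex and hippocampus, and in cerebellum Enpp6 fell. Heterozygous loss of Cul3 gave no difference in any of the 8 genes that passed the test. However, 5 of them were called in hippocampus at P7 or P35 once factors of unwanted variation were fitted. Those fits called 0.732% to 1.21% of all genes at P7 and up to 2.77% at P35. Among the E17.5 embryos, most of these genes differed by a code in the name of the embryo, each code holding both genotypes.

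The libraries were made from ribosome-depleted total RNA from the cerebellum (CB), the hippocampus (HIP) and the cortex of the cerebrum (CX) of mice on the background written C56Bl/6N in the labels and C57BL/6N in the study's methods, at E17.5, at P7 and in adults labelled P35. WT mice were compared with Cul3+/- mice (HET), which carry a germline frameshifting insertion in 1 allele of Cul3 in every cell, in a line bred from 1 founder. No treatment is named in the labels. Cul3 is the scaffold of a family of E3 ubiquitin ligases. Each mouse gave all 3 regions, with 6 mice per genotype at E17.5 and at P7 and 5 at P35. Replicates are thus separate mice, and the adult mice P35_22 and P35_23 were left out because sources disagree on their genotype. The 102 libraries used held 15126114 to 44411282 counts. Cul3 itself stood at 50.1% to 61.0% of the WT mean in the HET libraries of the 9 period-by-region datasets, and in none of them did the genotypes overlap. In WT libraries the summed level, in counts scaled to the library size (CPM), of 4 cortical marker genes was 183 to 1038 in CX and 0.634 to 11.1 in CB. The sum of 6 cerebellar markers was 843 to 2221 in CB and 11.02 to 279 elsewhere, with its highest value outside CB in E17.5 HIP. The sum of 4 hippocampal markers was 465 to 2056 in HIP and 58.4 to 421 elsewhere.

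Oligodendrocyte precursors arise in waves from ventral and later dorsal germinal zones, spread through the brain and divide in response to platelet-derived growth factor (PDGF), whose A chain binds the receptor encoded by Pdgfra. Cspg4 encodes the NG2 proteoglycan on the surface of the same cells. Olig1 and Olig2 are basic helix-loop-helix factors, of which Olig2 is needed for the lineage to be specified, and Sox10 is the HMG-box factor that carries it on to myelin gene transcription. Gpr17, a G-protein-coupled receptor, is expressed for a short time as precursors commit to differentiation, and Enpp6, a choline phosphodiesterase, and Bcas1 mark cells that are just becoming myelinating. Several of these genes are also used by other cells, Pdgfra by meningeal and perivascular fibroblasts, Cspg4 by pericytes, Olig2 by some progenitors of neurons and astrocytes, and Sox10 by neural crest.

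Pdgfra and Enpp6 stand at opposite ends of the sequence of events described below. The 250 bases before their RefSeq starts are shown for that reason (GRCm38.p6, both plus strand, 5' to 3'). The windows are chr5:75152001-75152250 for Pdgfra and chr8:46986637-46986886 for Enpp6. That of Pdgfra ends short of the annotated gene start given below, 75152292. RefSeq promoters were used for 4 of the 8 genes, Gpr17 not being searched, and in these 2 the window ended before the first annotated base. Capitals mark the motifs searched on both strands, the E-box of basic helix-loop-helix factors (CANNTG) and a SOX core (ACAAAG or ACAATG), which share no position here.
Pdgfra: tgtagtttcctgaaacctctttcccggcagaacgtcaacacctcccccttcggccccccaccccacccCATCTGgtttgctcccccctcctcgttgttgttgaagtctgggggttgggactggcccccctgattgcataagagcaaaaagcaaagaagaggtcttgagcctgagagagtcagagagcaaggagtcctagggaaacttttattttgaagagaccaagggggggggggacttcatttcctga
Enpp6: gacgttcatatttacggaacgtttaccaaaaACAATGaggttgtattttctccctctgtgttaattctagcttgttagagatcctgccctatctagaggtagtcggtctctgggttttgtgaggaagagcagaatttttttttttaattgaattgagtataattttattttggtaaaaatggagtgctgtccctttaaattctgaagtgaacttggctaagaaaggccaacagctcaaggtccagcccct
The Pdgfra window held 1 E-box and no SOX core, and the Enpp6 window held 1 SOX core and no E-box. Of 32851 RefSeq promoter windows of the same length, 66.2% held an E-box and 25.2% a SOX core.

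On the GRCm38 assembly, Pdgfra (ENSMUSG00000029231) lies on the plus strand of chromosome 5 from 75152292 to 75198215. Cspg4 (ENSMUSG00000032911) lies on the plus strand of chromosome 9 from 56865033 to 56899870. Olig2 (ENSMUSG00000039830) and Olig1 (ENSMUSG00000046160) are neighbours on the plus strand of chromosome 16, from 91225457 to 91228677 and from 91269772 to 91271933, with 41.1 kb between them. Sox10 (ENSMUSG00000033006) spans 79154908 to 79165240 of chromosome 15, minus strand. Gpr17 (ENSMUSG00000052229) spans 31942997 to 31949636 of chromosome 18, minus strand. Enpp6 (ENSMUSG00000038173) lies on the plus strand of chromosome 8 from 46986887 to 47096762. Bcas1 (ENSMUSG00000013523) spans 170346991 to 170427845 of chromosome 2, minus strand. Counts were per gene, over all annotated exons, so isoforms were not separated.

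The precursor genes peaked at P7. Pdgfra stood at 184.8 ± 12.8 CPM in P7 HIP (mean ± SD, n = 6), 160.1 ± 5.44 in P7 CX and 154.1 ± 15.6 in P7 CB, groups whose ranges overlapped in that order. It stood at 90.0 ± 6.96 in P35 HIP (n = 5), 79.8 ± 8.53 in P35 CX and 32.5 ± 2.98 in P35 CB. At E17.5 it was 69.9 ± 22.6 CPM in CB, 29.4 ± 19.8 in HIP and 26.96 ± 16.7 in CX (n = 6 each). Cspg4 was highest in P7 HIP at 55.5 ± 2.97 CPM, followed without overlap by P7 CX at 41.6 ± 4.02. The other 7 groups lay between 23.5 ± 3.57 in P35 HIP and 12.7 ± 3.95 in P35 CB, each overlapping its neighbour.

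The transcription factors differed in how long they stayed high. Olig1 was 85.1 ± 5.97 CPM in P7 HIP and still 78.1 ± 13.5 in P35 HIP, and it was lowest in E17.5 HIP at 11.9 ± 9.48. Olig2 ran from 30.3 ± 2.55 CPM in P7 HIP, which did not overlap P7 CX at 23.9 ± 2.24, to 7.13 ± 5.36 in E17.5 HIP. For Olig2 the cerebellum was already at 20.7 ± 2.69 at E17.5. Sox10 was highest in P35 HIP at 28.1 ± 7.06 CPM, overlapping P7 CB at 24.7 ± 4.82 and then P35 CX at 23.7 ± 2.87, and the 3 E17.5 groups were lowest, at 1.86 to 4.45.

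The genes of commitment had the widest range. Gpr17 was highest in P7 CB at 135.1 ± 41.7 CPM, overlapping P7 HIP at 94.5 ± 20.2, and the 3 E17.5 groups stood at 5.39 to 14. Enpp6 was 40.4 ± 11.4 CPM in P7 CB, 6.05 ± 1.35 in P7 CX and 17.7 to 20.9 in the 3 P35 groups. At E17.5 Enpp6 was close to absent. The 6 WT libraries together held 1 Enpp6 count in CX, 13 in HIP and 107 in CB, and the HET libraries held 3, 15 and 45. Bcas1 was 87.5 ± 20.8 CPM in P35 HIP, 79.4 ± 16.5 in P7 CB and 0.825 ± 0.542 in E17.5 CX. Comparing genes with each other needs levels per kb of exon. On that scale Olig1 was the highest of the 8 in P7 CX at 30.8 CPM per kb, ahead of Gpr17 at 17.4, Pdgfra at 15.97 and Olig2 at 9.43, and Enpp6 was the lowest at 0.944.

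**Figure D1:**
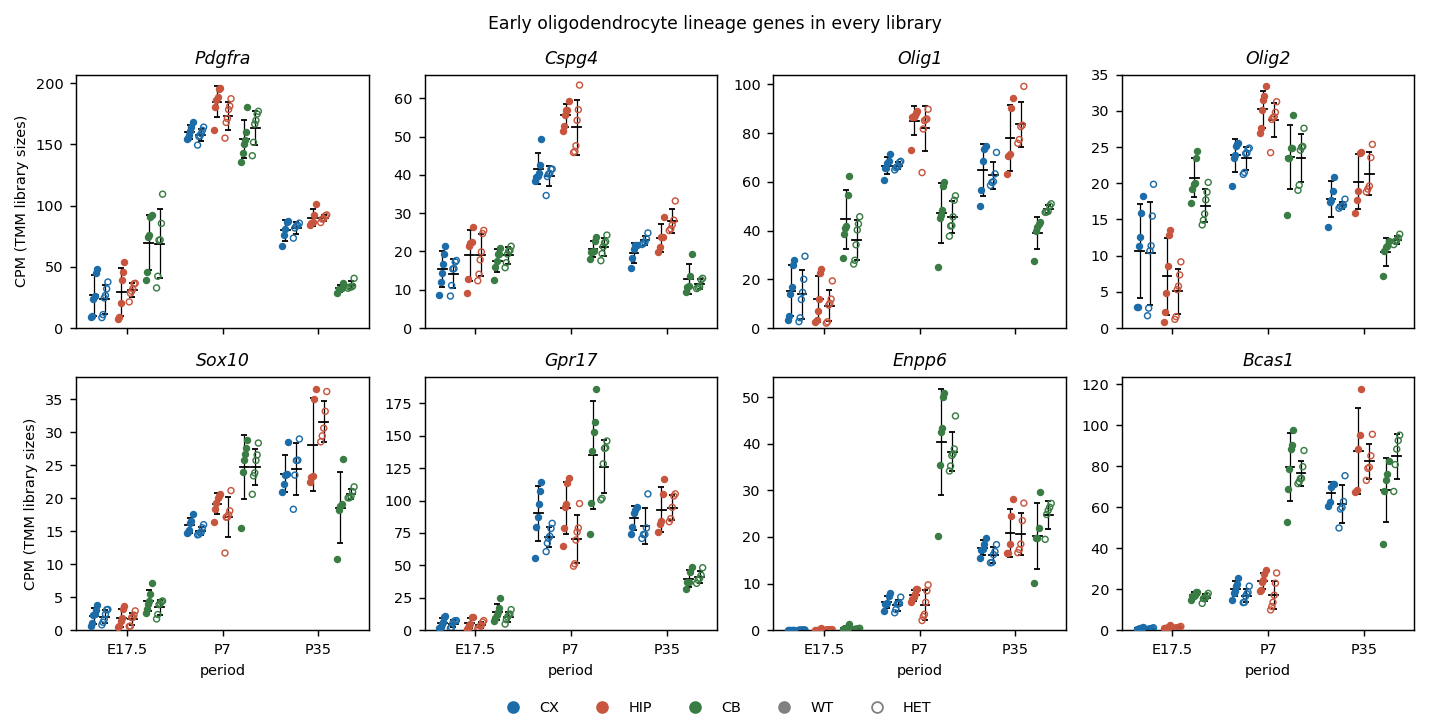
Level of each of the 8 genes in every library, in CPM on TMM library sizes (vertical axis from 0), by period (horizontal axis) and region (colour), with WT filled and HET open and bars for the mean and SD of each group. Pdgfra and Cspg4 are highest at P7, whereas Enpp6 and Bcas1 are high at P7 in CB alone, where Enpp6 means 40.4 CPM, and at P35 in all 3 regions.

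Between E17.5 and P7, all 8 genes rose in WT CX and HIP, and 5 of 8 rose in CB. In this fit 42.1% of all genes tested rose and 41.1% fell in CX, 37.6% rose and 40.3% fell in HIP, and 36.0% rose and 36.1% fell in CB. None of the 8 fell. In bulk tissue, fewer cells of a type and less RNA per cell cannot be told apart. Pdgfra rose 5.75-fold in CX (log2 2.52 ± 0.30 SE), 6.09-fold in HIP (2.61 ± 0.28) and 2.19-fold in CB (1.13 ± 0.19). Its 6 WT values in CX were 8.67 to 48.2 CPM at E17.5 (median 25.1) and 154.3 to 168.4 at P7, with no overlap. Olig1 rose 4.19-fold in CX and 6.91-fold in HIP, but its log2 change in CB was 0.07 ± 0.17. Olig2 rose 2.16-fold in CX and 4.10-fold in HIP, against 0.18 ± 0.12 on the log2 scale in CB. Cspg4 rose 2.62-fold in CX and 2.84-fold in HIP, against 0.23 ± 0.13 in CB. The 3 genes that did not pass in CB of WT mice were thus the proteoglycan and both Olig factors. In HET mice Olig2 (0.47 ± 0.12) and Olig1 (0.33 ± 0.17) did pass in CB, and Cspg4 (0.15 ± 0.13) did not, beside 7133 of 19416 genes that rose.

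The genes of later steps rose more. Sox10 rose by 2.80 ± 0.26, 3.29 ± 0.32 and 2.46 ± 0.21 on the log2 scale in CX, HIP and CB. Gpr17 rose 14.8-fold in CX (5.89 to 90.2 CPM in the mean), 16.7-fold in HIP and 9.57-fold in CB. Bcas1 rose 23.9-fold in CX, 15.1-fold in HIP and 4.60-fold in CB. Enpp6 rose in all 3 regions, and its fold is given for CB alone, 79.9, because the embryonic counts of CX and HIP were too few for one. The largest adjusted p among these rises was 0.00712, that of Olig2 in CX, from edgeR's quasi-likelihood test with Benjamini-Hochberg adjustment. Each of the 21 rises kept its call when any 1 library, or the embryos named S3 (described below), were left out.

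Fibroblast and pericyte markers moved over the same interval, in which 42.1%, 37.6% and 36.0% of all genes rose in CX, HIP and CB. The shares that fell were 41.1%, 40.3% and 36.1%. All 6 fibroblast genes rose in each region in WT, and their summed level in CX went from 10.0 to 33.7 CPM at E17.5 to 166 to 265 at P7. Of the 6 pericyte genes, 3 rose and 2 fell in CX, 2 and 2 in HIP and 3 and 2 in CB, with sums of 126 to 155 CPM in E17.5 CX and 208 to 235 in P7 CX. In CB the fibroblast sum was 15.8 to 118 CPM at E17.5 and 407 to 652 at P7. Their part in the rises of Pdgfra and Cspg4 was not tested.

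Between P7 and P35 the 8 genes no longer moved together. In WT CX, Pdgfra and Cspg4 fell, Sox10, Enpp6 and Bcas1 rose, and Olig1, Olig2 and Gpr17 did not pass, beside 34.0% of all genes that rose and 35.5% that fell. The same 5 genes passed in the same directions in HIP, where 31.9% of all genes rose and 30.2% fell. In CB, 6 of the 8 fell and none rose, against 40.0% and 39.2% of all genes. Pdgfra fell by 0.97 ± 0.30 on the log2 scale in CX, by 0.999 ± 0.28 in HIP and by 2.23 ± 0.21 in CB. In CB its values were 135.8 to 180.8 CPM at P7 and 28.9, 31.6, 32.01, 32.9 and 37.1 at P35. Cspg4 fell by 1.05 ± 0.16 in CX, 1.20 ± 0.18 in HIP and 0.69 ± 0.14 in CB.

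Enpp6 and Bcas1 both rose in the forebrain regions, whereas in CB Enpp6 fell and Bcas1 did not pass the test. Enpp6 rose 2.99-fold in CX, from 4.14 to 7.93 CPM at P7 to 15.6 to 19.8 at P35 with no overlap, and 2.86-fold in HIP. In CB it fell 1.98-fold, from 20.1 to 50.9 CPM at P7 to 10.0 to 29.7 at P35, ranges that overlapped. Bcas1 rose 3.39-fold in CX and 3.77-fold in HIP, and its log2 change in CB was -0.20 ± 0.13. Gpr17 did not pass in CX (log2 change -0.03 ± 0.30) or HIP (0.02 ± 0.34), and fell 3.37-fold in CB. Olig1 changed by -0.01 ± 0.38 in CX, -0.09 ± 0.39 in HIP and -0.26 ± 0.18 in CB, none of which passed.

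Olig2 fell by 1.17 ± 0.13 in CB. In CX and HIP its changes were -0.39 ± 0.38 and -0.54 ± 0.38 and did not pass in the fit over all embryos. Without the embryos named S3, the standard errors fell to 0.12 and 0.17, and Olig2 passed in CX (-0.39, adjusted p = 0.00642 in edgeR's test) and in HIP (-0.51, adjusted p = 0.00949). Sox10 rose by 0.62 ± 0.24 in CX and 0.59 ± 0.28 in HIP and fell by 0.40 ± 0.20 in CB. The changes in HIP and CB were near the threshold (adjusted p = 0.0725 and 0.0685 by edgeR). The HIP call was lost without P7_HIP_WT replicate 2 (0.58), 3 (0.58) or 5 (0.53), or P35_HIP_WT replicate 3 (0.48) or 5 (0.45). The CB call was lost without P7_CB_WT replicate 3 (-0.38), 4 (-0.36) or 6 (-0.37), or P35_CB_WT replicate 2 (-0.26). In HET mice the second step was -0.92 and -2.23 for Pdgfra in CX and CB, -0.76 and -0.89 for Cspg4, 1.61 and -0.63 for Enpp6 and 1.90 and 0.15 for Bcas1. Over this interval 4 of 6 fibroblast genes fell in CX, 3 in HIP and 3 in CB, and none rose. Of 6 pericyte genes, 4, 5 and 4 fell and 0, 0 and 1 rose. Among all genes 35.5%, 30.2% and 39.2% fell in CX, HIP and CB, and 34.0%, 31.9% and 40.0% rose. The fibroblast sum in CB was 146 to 185 CPM at P35, and its part in the fall of Pdgfra was not tested.

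**Figure D2:**
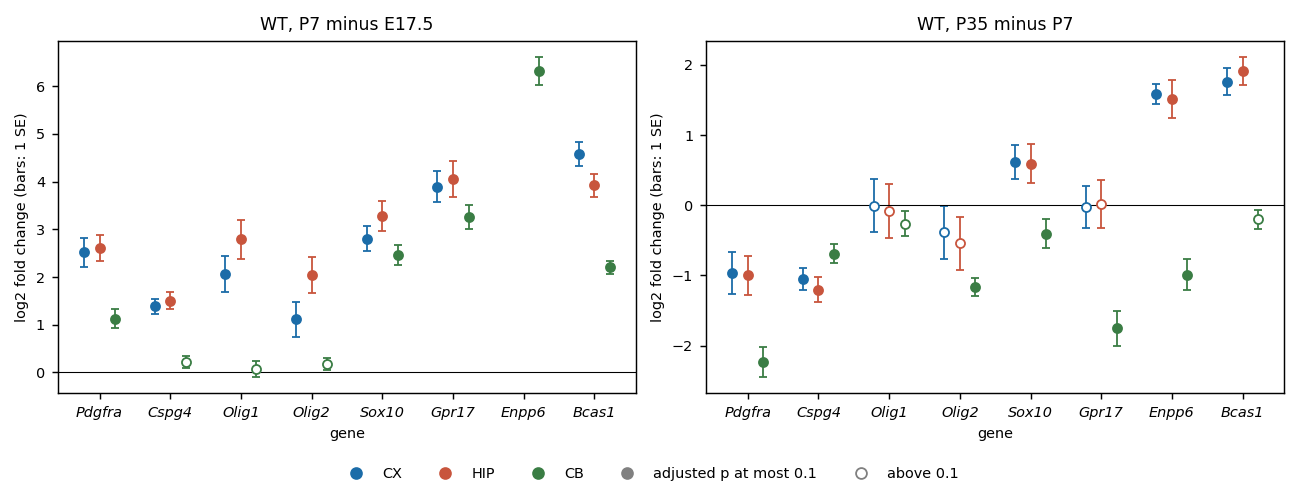
Log2 fold change of each gene in WT mice from E17.5 to P7 (left) and from P7 to P35 (right) in CX, HIP and CB, with bars of 1 SE and filled points for an adjusted p of at most 0.1. Enpp6 is left out of the first step in CX and HIP for its few embryonic counts. In the second step Enpp6 and Bcas1 are above 0 in CX and HIP, and Enpp6 is at -0.99 in CB.

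The order of the regions turned over with age. At E17.5 all 8 genes were higher in CB than in CX in WT mice, beside 32.4% of all genes that were higher and 31.5% that were lower. Bcas1 differed most among those with counts in both regions, by 4.53 ± 0.22 on the log2 scale, with 14.5 to 18.8 CPM in the 6 CB libraries and 0.316 to 1.71 in CX. Olig1 was higher by 1.92 ± 0.34, Pdgfra by 1.63 ± 0.25, Gpr17 by 1.47 ± 0.21, Olig2 by 1.36 ± 0.39 and Sox10 by 1.19 ± 0.21. Cspg4 differed least (0.26 ± 0.11), and its call was lost without E17.5_WT mouse 1 (0.22), 3 (0.22) or 4 (0.20), and without all S3 embryos (0.17). Per kb of exon, Bcas1 stood at 4.52 CPM in E17.5 CB of WT mice, Sox10 at 1.46 and Enpp6 at 0.0776, with Pdgfra at 6.97 and Olig1 at 20.6. Whether other cells of embryonic CB express Bcas1 was not tested. Against HIP, 7 of 8 were higher in CB, Cspg4 being the exception, beside 26.2% of all genes higher and 26.2% lower. Between HIP and CX, Cspg4 (0.31 ± 0.11), Bcas1 (0.93 ± 0.23) and Enpp6 (13 counts against 1) were higher in HIP and none was lower, beside 25.3% and 23.8% of all genes. In HET mice Olig2 (-0.97 ± 0.39) and Gpr17 (-0.45 ± 0.22) were called lower in HIP than in CX, and 4 of the 8 genes were higher. There 5151 of all 18637 genes were lower and 4663 higher.

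At P7 the precursor and commitment genes parted. In CB, Sox10, Gpr17, Enpp6 and Bcas1 were higher than in CX, by 0.68 ± 0.09, 0.62 ± 0.11, 2.77 ± 0.18 and 2.02 ± 0.13 on the log2 scale. Cspg4 (-0.95 ± 0.08) and Olig1 (-0.47 ± 0.12) were lower, and Pdgfra (0.00 ± 0.06) and Olig2 (0.04 ± 0.09) did not pass. These 4 higher and 2 lower stand beside 43.7% and 38.1% of all genes. Against HIP, the same 4 genes were higher in CB and the other 4 were lower (41.2% and 35.1% of all genes). HIP exceeded CX for Pdgfra, Cspg4, Olig1, Olig2 and Sox10, by 0.20 to 0.41, and none was lower (27.6% and 27.7% of all genes). These are the values of WT mice. In HET mice 5 genes were higher and 2 lower in CB than in CX (8449 and 7072 of 19381 genes). In the same mice 3 genes were higher in HIP than in CX and 0 lower (5252 and 5222 genes).

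At P35 the cerebellum was the lowest region for 6 genes in WT mice. Against CX, Pdgfra differed by -1.29 ± 0.07 on the log2 scale, Gpr17 by -1.14 ± 0.09, Olig2 by -0.78 ± 0.11, Olig1 by -0.73 ± 0.12, Cspg4 by -0.64 ± 0.12 and Sox10 by -0.39 ± 0.13, whereas Enpp6 (0.14 ± 0.16) and Bcas1 (0.02 ± 0.15) did not pass. Of all genes, 40.0% were higher and 36.8% lower. The Sox10 call was lost without P35_WT mouse 2 (-0.23), and without that mouse Enpp6 alone of the 8 genes was called higher in CB than in CX. Against HIP, 7 were lower in CB, Enpp6 being the exception (38.5% of all genes higher, 38.0% lower), and the Bcas1 call (-0.35 ± 0.15) was lost without P35_WT mouse 2 (-0.20) or 4 (-0.23). HIP was above CX for 4 genes, Pdgfra, Cspg4, Olig1 and Bcas1, by 0.18 to 0.37, and below it for none (29.3% and 26% of all genes). These 4 calls were near the threshold (adult mice are numbered as in CX). Bcas1 alone passed without P35_WT mouse 3 or without P35_HET mouse 3, which shares in the spread, and Pdgfra alone passed among them without P35_WT mouse 4. Without P35_WT mouse 6, Pdgfra (0.15) and Cspg4 (0.23) were lost, and without P35_WT mouse 1 Olig1 (0.21). In HET mice Enpp6 (0.58 ± 0.16) and Bcas1 (0.44 ± 0.15) were called higher in CB than in CX, and the other 6 genes lower. Of all 19034 genes, 7535 were higher and 7215 lower there. HIP was above CX for 7 of the 8 genes in HET mice and below it for 0, beside 5403 and 5078 genes. In WT mice of the same age 6 of 6 fibroblast genes and 6 of 6 pericyte genes were higher in CB than in CX. Fibroblast sums were 146 to 185 CPM in CB and 60.1 to 96.8 in CX, and pericyte sums 216 to 244 and 169 to 204. Their part in the levels of Pdgfra and Cspg4 was not tested.

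The period steps themselves differed between CB and CX. This test of the difference was added after the data were seen. For the step from E17.5 to P7, all 7 genes that could be compared rose less in CB than in CX in WT mice, beside 69.6% of all genes that differed in either direction. The difference was -2.45 ± 0.25 for Bcas1, -2.36 ± 0.33 for Olig1, -1.62 ± 0.22 for Pdgfra, -1.28 ± 0.34 for Olig2, -1.21 ± 0.15 for Cspg4, -0.81 ± 0.20 for Gpr17 and -0.45 ± 0.22 for Sox10. The Sox10 call was lost without E17.5_WT mouse 3 (-0.25) or 4 (-0.39) or P7_WT mouse 2 (-0.35). In HET mice the difference was -2.31 for Bcas1, -2.26 for Olig1, -0.29 for Gpr17 and -0.04 for Sox10.

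For the step from P7 to P35, 6 genes moved down more, or up less, in CB than in CX and 1 moved down less, beside 61.0% of all genes that differed. The largest difference was that of Enpp6 (-2.60 ± 0.25), followed by Bcas1 (-1.98 ± 0.21), Gpr17 (-1.73 ± 0.20), Pdgfra (-1.26 ± 0.23), Sox10 (-1.04 ± 0.21) and Olig2 (-0.78 ± 0.34). The Olig2 call was lost without P35_WT mouse 2 (-0.67). Cspg4 differed by 0.33 ± 0.16, a call that was lost when any 1 of 10 WT mice was left out, at 0.17 to 0.33. These were E17.5_WT mice 2, 5 and 6, P7_WT mice 2 to 5 and P35_WT mice 3, 4 and 6. In HET mice the difference was -2.31 for Enpp6, -1.82 for Gpr17, -1.80 for Bcas1 and -0.14 for Cspg4. Between HIP and CX of WT mice the second step passed edgeR's test for none of the 8 (17.6% of all genes passed, and no gene of the 8 had an adjusted p under 0.5). In HET mice Bcas1 passed, with a larger step in HIP (0.46 ± 0.20, adjusted p = 0.0992), beside 26.2% of all genes. In WT mice the first step was larger in HIP for Olig2 (0.98 ± 0.34), Olig1 (0.79 ± 0.33) and Sox10 (0.56 ± 0.24) and smaller for Bcas1 (-0.64 ± 0.29), beside 38.6% of all genes. The Olig1 call was lost without E17.5_WT mouse 2 (0.62) or P7_WT mouse 1 (0.76). The Bcas1 call was lost without any of E17.5_WT mice 1, 3 and 4 and P7_WT mice 1, 3 and 5 (-0.62 to -0.49). The Sox10 call was lost without any of E17.5_WT mice 1, 2 and 4, P7_WT mice 1, 5 and 6 and P35_WT mice 1, 3 and 6 (0.43 to 0.55).

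Among E17.5 embryos of the same group, these genes varied widely. Olig2 in the 6 WT CX libraries was 2.91, 2.97, 11.4, 12.5, 15.9 and 18.3 CPM. The embryo names carry the code S2, S3 or S4, each with 2 WT and 2 HET embryos, and the labels do not say what the codes stand for. In CX all 4 S3 embryos had 1.71 to 2.97 CPM of Olig2, the 4 S2 embryos 10.7 to 12.5 and the 4 S4 embryos 15.5 to 19.9, so the codes did not overlap while the genotypes did. Gpr17 in CX was 1.5 to 2.13 CPM in S3, 4.72 to 7.29 in S2 and 6.71 to 10.7 in S4.

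The difference between codes was tested with genotype as a term, a comparison that was added after this pattern was seen in the same embryos. In CX and in HIP, S4 exceeded S3 for 7 of 7 genes, and in CB for 6 of 8, beside 22.7%, 19.4% and 20% of all genes that were higher. The exceptions in CB were Bcas1 (0.15 ± 0.10) and Enpp6 (0.98 ± 0.50). Olig1 was higher in S4 by 2.78 ± 0.18 on the log2 scale in CX, by 2.88 ± 0.22 in HIP and by 0.66 ± 0.14 in CB. Between S2 and S3, 7 of 7, 5 of 7 and 5 of 8 genes differed in CX, HIP and CB, each of them higher in S2, beside 35.1%, 23% and 13.3% of all genes that differed in either direction. S4 exceeded S2 for 2 of 7 genes in CX (Olig1 and Olig2), for Gpr17 in HIP and for none of 8 in CB by edgeR's test, where 2 passed by DESeq2 and Pdgfra and Gpr17 had unadjusted p-values of 0.00236 and 0.00904. These stand beside 0.758%, 0.0171% and 0.0885% of all genes by edgeR's test. DESeq2 put S4 above S2 for 1.7%, 0.739% and 0.835% of all genes in CX, HIP and CB, and edgeR without the low-count filter for 0.577%, 0.122% and 1.17%.

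Several of these calls rested on single libraries. In CX, the S4 over S2 calls of Olig1 and Olig2 were both lost without E17.5_CX_WT replicate 5 (0.86 and 0.60) or E17.5_CX_HET replicate 2 (0.81 and 0.60) or 5 (0.74 and 0.50), and that of Olig2 also without E17.5_CX_WT replicate 1 (0.58) or 2 (0.63). The Gpr17 call in HIP was lost without 11 of the 12 libraries, E17.5_HIP_WT replicate 4 being the exception, at 1.01 to 1.12. The S4 over S3 call of Pdgfra in HIP was lost without any of E17.5_HIP_WT replicates 3 to 6 and E17.5_HIP_HET replicates 5 and 6 (0.78 to 1.27), that of Bcas1 in HIP without E17.5_HIP_WT replicate 5 (0.50) and that of Olig2 in CB without E17.5_CB_WT replicate 5 or 6 or E17.5_CB_HET replicate 4 or 5 (0.24 to 0.26). The S2 over S3 call of Olig1 in CB was lost without any of E17.5_CB_WT replicates 1, 4 and 6 and E17.5_CB_HET replicates 1 to 5 (0.33 to 0.47). That of Bcas1 in CX was lost without any of E17.5_CX_WT replicates 2, 3 and 4 and E17.5_CX_HET replicates 1 and 3 (0.71 to 0.84). In HIP, Pdgfra followed the codes less closely than Olig2. It was 53.9 CPM in the S2 embryo E17.5_HIP_WT replicate 2, with a fibroblast sum of 174 CPM, and 28.5 and 30.1 in the S3 embryos E17.5_HIP_HET replicates 3 and 4, with fibroblast sums of 264 and 295. The fibroblast sum ran from 29.8 to 218 CPM over the WT HIP libraries, and its part in the level of Pdgfra was not tested.

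**Figure D3:**
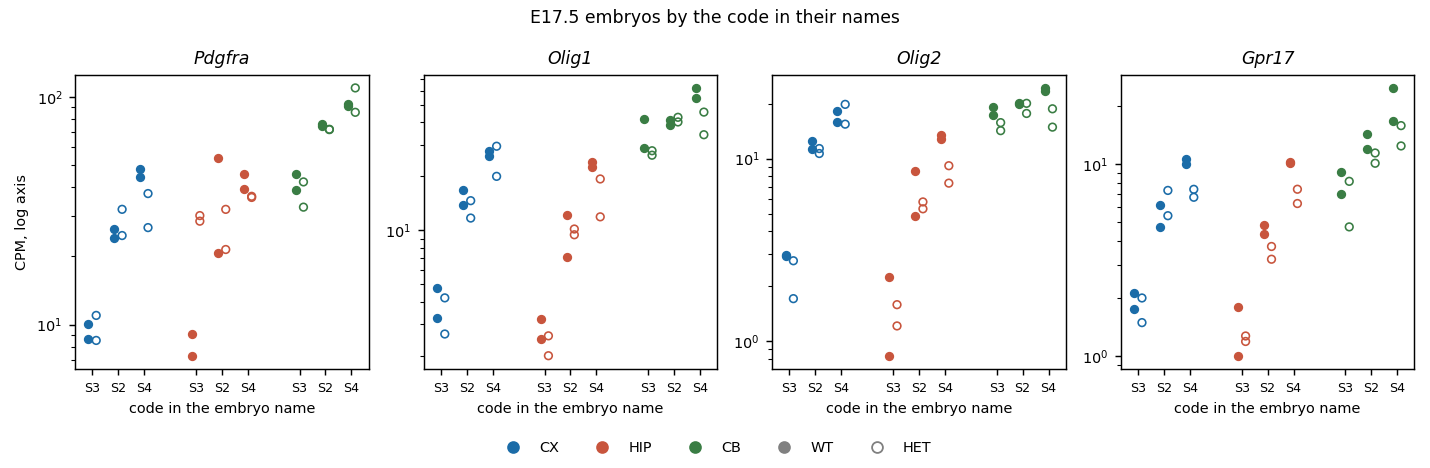
CPM (log axis) of Pdgfra, Olig1, Olig2 and Gpr17 in the 12 E17.5 embryos, by region (colour) and by the code in the embryo name, with WT filled and HET open. Each point is 1 library. In CX the S3 embryos lie lowest for all 4 genes, with Olig2 at 1.71 to 2.97 CPM.

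HET and WT mice were compared in each of the 9 datasets to ask whether loss of 1 Cul3 allele moved these genes. Enpp6 passed the low-count filter at P7 and P35 alone, which left 69 tests, and none passed an adjusted p of 0.1, by edgeR or by DESeq2. By edgeR's test Cul3 was the single gene called in each dataset, which is 0.00603%, 0.00586% and 0.00568% of the genes tested in CX, HIP and CB at E17.5, 0.00566%, 0.00563% and 0.0057% at P7 and 0.00569%, 0.00584% and 0.00584% at P35. The study reported many more changed genes at the same threshold, from a model with factors of unwanted variation and sex as terms. The edgeR fit here had neither term. DESeq2 called 218 genes in P35 CB (1.27%), none of them among the 8, and 1 to 6 genes in each of the other datasets. In 67 of the 69 tests the log2 difference was at most 0.5 in size, and the largest was 0.506. With an unadjusted p under 0.05 there were 6, of 0, 0 and 1 gene in CX, HIP and CB at E17.5 (all genes 1.67%, 2.29% and 3.5%), 1, 1 and 0 at P7 (3.22%, 5.05% and 4.89%) and 1, 1 and 1 at P35 (3.66%, 6.25% and 14.4%). Adjusted p-values between HET and WT are from edgeR's quasi-likelihood test, except those with RUVs factors, which are from edgeR's likelihood ratio test.

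At E17.5 the differences had wide errors in CX and HIP, and that of Olig2 in CX was -0.05 ± 0.60 on the log2 scale. In CB, Olig2 was 19.9, 20.1, 19.3, 17.3, 24.4 and 23.4 CPM in WT and 17.7, 20.1, 15.8, 14.3, 18.8 and 14.9 in HET, a log2 difference of -0.28 ± 0.10 (adjusted p = 0.988). The ranges overlapped. With the code as a block, the median standard error of the members went from 0.467 to 0.140 in CX, from 0.513 to 0.173 in HIP and from 0.179 to 0.0775 in CB. No gene of the 8 was called then either (smallest adjusted p = 0.502), and in CB 4 of 7 had an unadjusted p under 0.05, Olig2 (-0.28), Olig1 (-0.28), Sox10 (-0.35) and Gpr17 (-0.38), all lower in HET. In that blocked fit 8.05% of all genes had such a p.

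At P7 the largest differences in CX and HIP were those of Gpr17, Bcas1 and Enpp6, all lower in HET. Gpr17 in CX was 55.7 to 114.1 CPM in WT (median 92.2) and 60.6 to 82.4 in HET (median 71.7), a log2 difference of -0.32 ± 0.14 (adjusted p = 0.90). In HIP it was 94.8, 78.5, 64.7, 117.7, 97.8 and 113.3 CPM in WT and 49.4, 51.2, 97.7, 75.8, 78.8 and 69.6 in HET, a difference of -0.42 ± 0.18 (adjusted p = 0.833). Enpp6 in HIP was 5.95 to 8.82 CPM in WT, whereas 3 HET mice had 2.06, 2.90 and 3.40 and the other 3 had 5.98, 8.46 and 9.73. Bcas1 in HIP split likewise, at 9.85, 11.5 and 13.6 CPM in these 3 HET mice against 17.1 to 27.9 in the other 3 and 19.3 to 29.1 in WT. The differences of -0.46 ± 0.32 and -0.48 ± 0.22 did not pass. The names of the P7 mice also carry a code, C1, C2 or C4, each holding both genotypes. With that code as a block, 2 of 8 genes in CX, 3 in HIP and 0 in CB had an unadjusted p under 0.05. In those fits 5.53%, 5.56% and 5.5% of all genes had such a p. None of the 8 was called (smallest adjusted p = 0.815 by edgeR's test). With 5 unwanted-variation factors (RUVs), the kind of correction the study used, Bcas1 (-0.55, adjusted p = 0.0117), Enpp6 (-0.68, adjusted p = 0.0541) and Gpr17 (-0.43, adjusted p = 0.098) were called lower in HET, and with 3 factors Bcas1 alone was (-0.53, adjusted p = 0.0399). The same corrections called 1.21% and 0.732% of all genes in P7 HIP with 5 and 3 factors.

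At P35, Cspg4 was higher in HET in both forebrain regions before adjustment. In CX it was 20.6, 21.6, 21.7, 15.7 and 18.3 CPM in WT and 24.8, 21.8, 22.4, 23.4 and 22.1 in HET, groups that did not overlap, with a log2 difference of 0.24 ± 0.08 (adjusted p = 0.997). In HIP it was 19.7 to 29.1 CPM in WT and 25.5 to 33.2 in HET, a difference of 0.25 ± 0.10 (adjusted p = 0.796). In CB the difference was -0.17 ± 0.17. The pericyte sum in CX was 169 to 204 CPM in WT and 160 to 210 in HET, and its part in these values was not tested. With RUVs of 5 factors, Cspg4 (0.24, adjusted p = 0.0485) and Sox10 (0.23, adjusted p = 0.0206) were called in P35 HIP, and 2.77% of all genes were called with them. With 3 factors both were called too (adjusted p = 0.0863 and 0.086), among 195 of 17123 genes. Olig1 in P35 CB was 43.7, 27.7, 42.7, 39.7 and 41.5 CPM in WT and 50.1, 47.6, 47.9, 47.5 and 51.0 in HET, which did not overlap (0.30 ± 0.11, adjusted p = 0.324). No period step or region difference of the 8 genes passed a test of its difference between genotypes. Over 15 such contrasts and 120 tests by edgeR, 0 passed and no gene of any kind was called. An unadjusted p under 0.05 was held by 7, as by 6.34% of the tests of all genes. Those of Enpp6 (0.57), Bcas1 (0.53), Gpr17 (0.39) and Pdgfra (0.20) lay in 1 contrast, CB minus HIP at P7. The others were Cspg4 in CB against CX (-0.38) and against HIP (-0.40) at P35, and Enpp6 in the first step in CB (1.13).

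**Figure D4:**
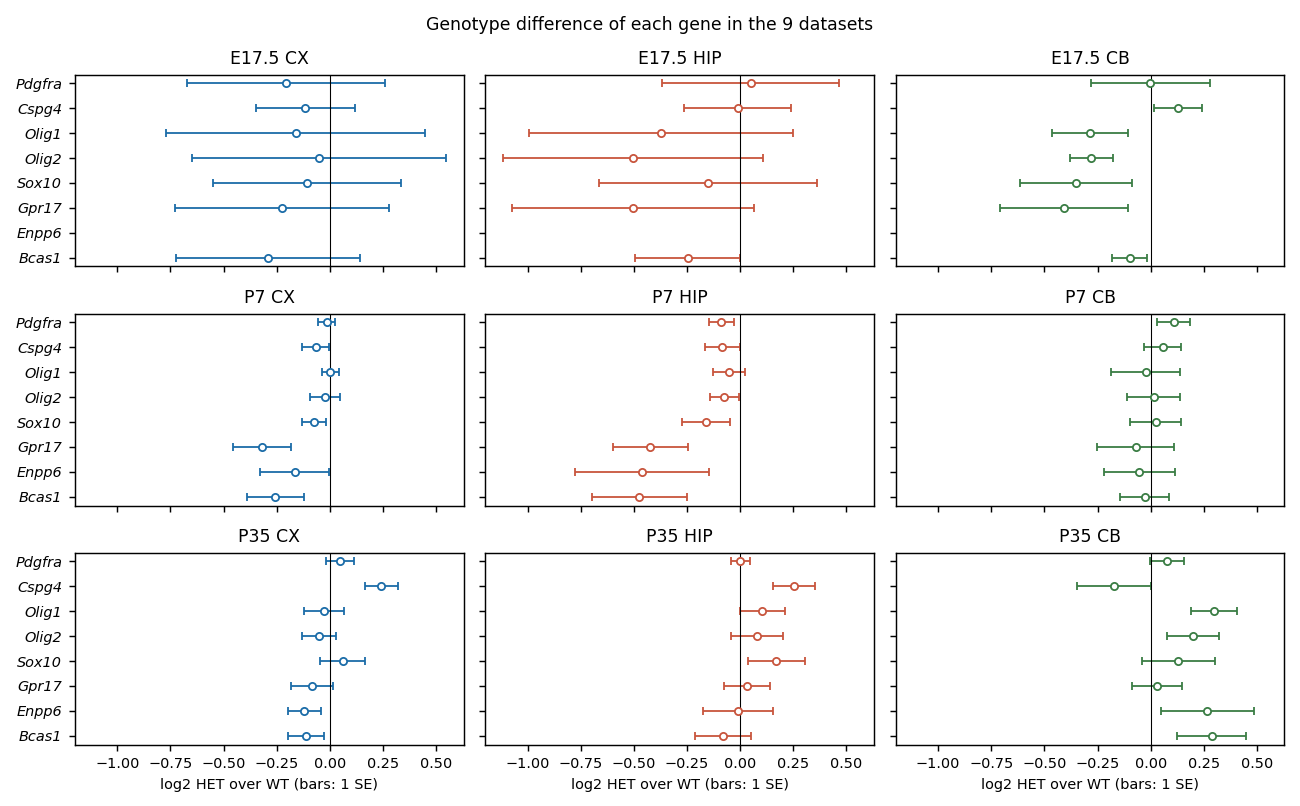
Log2 ratio of HET over WT for each gene (vertical axis) in the 9 period-by-region datasets, with bars of 1 SE. The E17.5 CX and HIP panels have the longest bars, and none of the 69 differences passed an adjusted p of 0.1.

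The 8 genes fell into overlapping neighbourhoods by likeness over the 51 WT libraries, given as Pearson's r of log2 CPM. The libraries share mice, ages and regions, so r describes this set of libraries and has no p. Sox10 and Gpr17 were each the other's nearest gene of all, at r = 0.973. Olig1 was the nearest gene to Olig2 (r = 0.921), and Enpp6 and Bcas1 had r = 0.933. Cspg4 stood furthest from the late genes, at r = 0.216 with Bcas1 and 0.276 with Enpp6, and was closest among the 8 to Pdgfra (0.786). Pdgfra had Olig2 at rank 3 among all genes (r = 0.878).

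Outside the 8, the nearest genes to Sox10 were Gal3st1 (r = 0.969), which makes the myelin lipid sulfatide, Nebl (0.964) and S100a16 (0.963). Nearest to Enpp6 were Selenop (0.974), 9630013A20Rik (0.973) and Neu4 (0.971), and to Bcas1 Abat (0.975), Plxnb3 (0.965) and Slc25a18 (0.964). Gpr17 had Prkcb (0.951) and Itpr2 (0.949). Olig1 had Stambpl1 (0.936), Gm9866 (0.925) and Spon1 (0.923), and Olig2 had Grin3a (0.875), Hcrtr2 (0.861) and Hs6st3 (0.857). Pdgfra had Prss35 (0.886), Cfap58 (0.878) and Hacd4 (0.874), and Cspg4 had Slc6a11 (0.883), Jazf1 (0.883) and Ccdc27 (0.877).

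**Figure D5:**
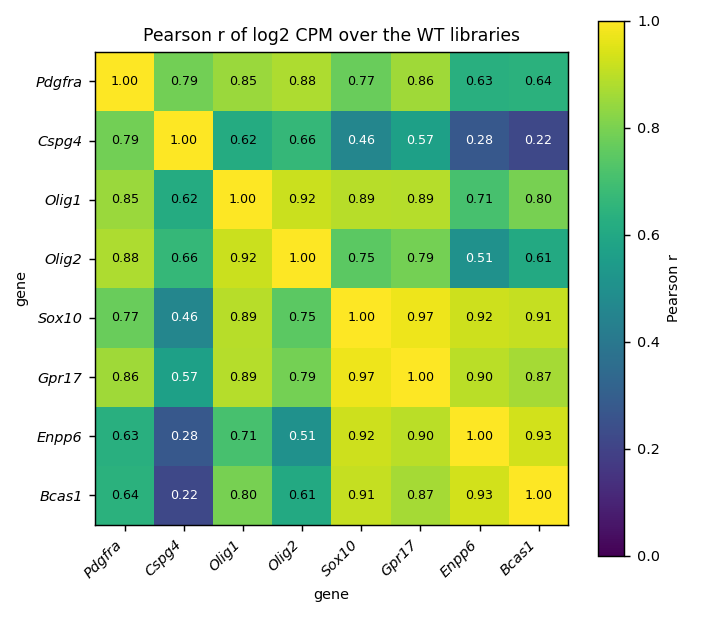
Pearson r of log2 CPM between each pair of the 8 genes over 51 WT libraries (both axes list the genes, colour from 0 to 1). Sox10 and Gpr17 share the highest value, 0.97, and Cspg4 with Bcas1 the lowest, 0.22.

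Other genes of the lineage were followed through lists, each by its counts in WT. At the first step 42.1%, 37.6% and 36.0% of all genes rose in CX, HIP and CB, and 41.1%, 40.3% and 36.1% fell. At the second step 34.0%, 31.9% and 40.0% rose, and 35.5%, 30.2% and 39.2% fell. These shares stand beside every list below. Where the counts of a list were near them, as for the ventral forebrain genes, no result was drawn. Of 14 further precursor genes, 8 rose and 4 fell from E17.5 to P7 in CX, 9 and 5 in HIP and 8 and 3 in CB, with list medians of 0.97, 0.82 and 0.70 against -0.04 to 0.02 over all genes. From P7 to P35, 2 rose and 8 fell in CX, 2 and 9 in HIP and 3 and 10 in CB. In CX the largest rises were of Susd5 (7.77), Matn4 (4.08) and the homeobox factor Nkx2-2 (3.61), and the largest falls at the second step of the proteoglycan Vcan (-2.69), Cacng4 (-2.61) and Ptprz1 (-1.64). Of 11 genes of committed and newly formed oligodendrocytes that could be tested, 8, 8 and 9 rose at the first step in CX, HIP and CB and 1, 2 and 0 fell. At the second step 4, 4 and 3 rose and 3, 2 and 7 fell. Neu4 (8.47), Bmp4 (5.43) and Zfp488 (3.07) led in CX at the first step, and Myrf, the regulator of myelin genes, rose by 2.82 at the second, with Rras2 at -1.71 and Neu4 at 1.56. In CB, Zfp488 and Bmp4 fell by 1.71 and by 1.53 at the second step.

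Of 12 genes of myelinating oligodendrocytes, 10 rose and 1 fell at the first step in CX, 10 rose in HIP and 12 rose in CB, and all 12 rose at the second step in all 3 regions. Their median log2 change at the first step was 2.02 in CX, 2.00 in HIP and 5.42 in CB, and at the second 5.94, 6.03 and 2.41. At P7 all 12 were higher in CB than in CX, with a median of 2.68, beside 43.7% of all genes that were higher. In CX, Mobp (7.0), Aspa (5.58) and Cldn11 (5.07) led the first step and Opalin (9.85), Mobp (8.88) and Mog (8.13) the second. Of the 4 PDGF ligand genes and Pdgfrb, 4 rose in CX and HIP and 3 rose and 1 fell in CB at the first step, with Pdgfb (2.42), Pdgfa (1.74), the main ligand of Pdgfra, and Pdgfd (1.33) in CX. At the second step 1, 1 and 2 rose and 1, 3 and 2 fell. Pdgfd rose by 0.99 and Pdgfb fell by 0.34 in CX, and Pdgfc fell by 2.4 in CB.

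Of the regulators of specification and differentiation, 21 could be tested in CX, where 3 rose and 16 fell at the first step. Of 22 tested elsewhere, 2 rose and 17 fell in HIP, whereas 7 rose and 10 fell in CB. At the second step 4, 6 and 5 rose and 8, 8 and 11 fell. Sox11 (-3.83) and Sox4 (-3.10), factors of immature neural cells, fell in CX and Shh (3.82) rose. At the second step Nkx6-2 rose by 6.21, and Sox11 and Sox4 changed by -2.77 and -2.29. Of 6 Schwann cell and neural crest genes 3 could be tested, and their summed level was 2.16 to 9.0 CPM over all WT libraries. Of these, 1, 1 and 1 rose and 1, 1 and 2 fell at the first step. In all 3 regions 5 of 5 microglial genes rose at the first step, as did 6 of 6 astrocyte genes in CX and HIP and 5 in CB. Of the ventral forebrain genes, 9, 8 and 6 could be tested in CX, HIP and CB, and at the first step 3, 5 and 2 rose and 4, 3 and 3 fell. By edgeR's test no gene of these lists was called between HET and WT, which follows from Cul3 being the single gene called in each dataset.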

How the data were processed

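RNA-seq libraries of 3 brain regions from WT and Cul3+/- mice at 3 ages were analysed. Per the submitters' processing notes, reads were trimmed with Cutadapt 1.14, aligned with STAR 2.5.3a to GRCm38.p5 and quantified with RSEM 1.3. The authors deposited 1 table of expected counts per gene, not normalized. 5.76% of its values were not whole, and all were rounded.

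Levels are CPM on TMM library sizes over the libraries used. Each test used edgeR 4.0.16 in R 4.3.3 on the counts of its own libraries, after filterByExpr (minimum count 10, minimum total 15), with the quasi-likelihood test and Benjamini-Hochberg adjustment over all genes, called at an adjusted p of at most 0.1. 20859 genes passed over all libraries. Genotypes were compared in each of the 9 datasets, periods in each region in 1 fit that shares its spread over ages and genotypes, and regions in each period with the mouse as a block. Each fit normalizes its own libraries, so a fitted difference can depart slightly from the ratio of mean CPM. Likeness was Pearson's r of log2 CPM with a prior count of 2, over WT libraries. Lengths are merged exons of GENCODE vM21. RUVs was recomputed in own code. Mice P35_22 and P35_23 (6 libraries) were left out. 270 replicate pairs were compared and 0 pairs of libraries were identical.

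Named genes were the 8 members, the 3 genes with the largest called change in each list and the 3 nearest genes to each member, of which 1 is not reported here. The members and lists were chosen with earlier results of these data known. The test of steps between regions, the codes in mouse names and the fits without S3 embryos were added after the data were seen. Alternatives were DESeq2 1.42.0, upper-quartile scaling, no low-count filter, RUVs with 3 and 5 factors, the likelihood ratio test, plain library totals, Xist as a covariate, a replicate block, WT libraries alone, the left-out mice restored, and leaving out each library or mouse. The scripts were tested on simulated data. There the genotype fit in P7 HIP recovered 26.9% of 1.25-fold, 59.7% of 1.5-fold and 74.2% of 2-fold changes, so small differences could be missed. False calls were 12 of 119 in that fit, 12 of 120 for WT P35 minus P7 in CX and 23 of 153 for WT CB minus CX at P7. The depth of 15126114 to 44411282 counts per library limits Enpp6 at E17.5, where 3 counts are about 0.1 CPM.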

Additional observations from a re-analysis of the deposited data

Results flagged for a closer look

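Single libraries stood apart from their group in 13 of 144 gene-by-group sets, by the gap to the nearest library as a share of the group's range, a measure that chance alone exceeds in about 1 in 20 sets. For Enpp6 these were 0.0293 CPM in E17.5_CX_WT replicate 2 (1 count), 1.24 in E17.5_CB_WT replicate 5 and 0.355 in E17.5_HIP_WT replicate 4, each the highest of its group. Olig2 was low in P7_CX_WT replicate 6 at 19.6 CPM and in P7_HIP_HET replicate 1 at 24.2. Cspg4 stood apart in P7_CX_HET replicate 5 at 34.6 CPM, and Sox10 was lowest in P7_CB_WT replicate 2 at 15.5. Olig1 was 73.0 CPM in P7_HIP_WT replicate 5 and 63.8 in P7_HIP_HET replicate 1. In the adults Gpr17 was 105.0 CPM in P35_CX_HET replicate 4 and Pdgfra 40.6 in P35_CB_HET replicate 6. P35_CB_WT replicate 2 was lowest for Olig1 at 27.7 CPM and for Olig2 at 7.15, and it was the lowest of its 5 libraries for Pdgfra, Sox10, Gpr17, Enpp6 and Bcas1 as well. P7_CB_WT replicate 2 was the lowest of 6 libraries for Olig1, Olig2, Sox10, Gpr17, Enpp6 and Bcas1 and the highest for Pdgfra, at 180.8 CPM.

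The period steps of WT mice differed between regions by a test of the difference itself, on the log2 scale. From E17.5 to P7, CB differed from CX by -1.62 for Pdgfra, -1.21 for Cspg4, -2.36 for Olig1, -1.28 for Olig2, -0.45 for Sox10, -0.81 for Gpr17 and -2.45 for Bcas1. From P7 to P35, CB differed from CX by -1.26 for Pdgfra, 0.33 for Cspg4, -0.78 for Olig2, -1.04 for Sox10, -1.73 for Gpr17, -2.60 for Enpp6 and -1.98 for Bcas1. From E17.5 to P7, HIP differed from CX by 0.79 for Olig1, 0.98 for Olig2, 0.56 for Sox10 and -0.64 for Bcas1.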

How the results depend on the processing

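The single values checked were the member with the smallest p in each genotype comparison and every called WT period, region or code difference. Of 3491 checks of these 158 values, 3372 kept both direction and side of the threshold, 115 lost the call, 3 gained it and 1 reversed, and the cause was not tested. The reversal was Bcas1 between HET and WT in E17.5 CX, which ran from -0.506 to 0.0586 on the log2 scale with 1 library left out and was 0.0586 without E17.5_CX_WT replicate 5. RUVs called 1 member in P7 HIP with 3 factors and 3 with 5, and 2 and 2 in P35 HIP, where the fit without factors called 0. Of these, Bcas1, Enpp6 and Sox10 were not among the 158. Without the S3 embryos, 1 member (Olig2) became lower in HIP than in CX and 1 (Cspg4) lower in CB than in HIP at E17.5, where 0 had been. The count of members higher in HIP than in CX at P35 was 2 without the low-count filter and 1 to 6 with a mouse left out, and that higher in CB than in CX at P35 was 0 to 1. For the first step in HIP against CX, members higher were 1 to 3, and members lower were 0 without the filter and 0 to 1 with a mouse left out. Members higher in CB than in CX for the second step were 0 to 1. For S4 over S2 at E17.5, DESeq2 called 4 members in CX, 4 in HIP and 2 in CB, and no filter gave 4, 2 and 3. Upper-quartile scaling gave 0 in HIP, and leaving out a library gave 0 to 4 in CX and 0 to 1 in HIP.

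The labels do not say that a replicate number marks a shared litter or batch, and in no dataset did every pair of the same number correlate above 0.1 (lowest r 0.0301 in E17.5 CX and -0.582 in P7 HIP), so the numbers were not taken to pair the mice. At E17.5 and at P7, however, mice of the same number share the code in their names. At E17.5 the median r of such pairs was 0.342 in CX, 0.235 in HIP and 0.232 in CB, against -0.0803, -0.0599 and -0.0205 for other pairs. At P7 it was 0.103, -0.0293 and 0.102, against -0.0407, -0.0121 and -0.0223. With the replicate block, 0 members were called in any dataset, while the genes called in E17.5 CX went from 1 to 55 and those with an unadjusted p under 0.05 from 277 to 2404. The region tests block by mouse, and with no replicate block Cspg4 (0.22) and Olig2 (0.98) lost their call for CB over CX at E17.5, as did Cspg4 for HIP over CX at E17.5 (0.34) and P35 (0.27). Sex was not in the labels. Bulk values cannot separate cell number from RNA per cell.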

Other observations

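The 6 libraries of mice P35_22 and P35_23 were not part of any comparison. Of their 48 values for the 8 genes, 45 lay inside the range of the other P35 libraries of the same region. The exceptions were Cspg4 at 15.3 CPM and Olig2 at 11.7 CPM in CX of P35_23 and Sox10 at 37.8 CPM in HIP of P35_22. Cul3 was 196, 227 and 203 CPM in CX, CB and HIP of P35_23, labelled WT, and 95.7, 121 and 99.0 CPM in P35_22, labelled HET. In the other P35 WT libraries it was 160.3 to 201.7, 168.5 to 221.5 and 179.5 to 215.7 CPM in CX, CB and HIP. In the other HET libraries it was 91.57 to 100.8, 119.8 to 129 and 93.67 to 104.2. The Cul3 level of both mice thus lay on the side of the genotype in their labels.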
